A study of Mus musculus with 6 samples.

Results

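The intercalated disc is the end-to-end contact between cardiomyocytes (CMs), and the genes described here encode the proteins that hold that contact together and let current pass through it. The set comprised 10 genes listed by name: the connexins Gja1 and Gja5, the classical cadherin Cdh2 and its partner Ctnna3, the desmosomal genes Dsp, Pkp2, Jup, Dsg2 and Dsc2, and the scaffold gene Tjp1. All 10 were among the 23337 genes of the count table, and all 10 passed the filter on low counts. In the disc, gap junctions built of connexins carry the electrical impulse from cell to cell, adherens junctions anchor the ends of the myofibrils through actin, and desmosomes anchor the intermediate filament desmin. In desmosomes the cadherins Dsg2 and Dsc2 bridge the gap between cells, Jup and Pkp2 bind the tails of these cadherins, and Dsp links that plaque to desmin. During the first postnatal weeks these proteins move from the sides of the CM to its ends. Mutations of the desmosomal genes are known for arrhythmogenic cardiomyopathy.

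Wildtype mice received an AAV9 vector on postnatal day 1, at 5e8 vg per g, and CMs were collected on postnatal day 14. The SRF-OE group received AAV9-cTNT-SRF-2A-GFP, which drives the transcription factor SRF together with GFP from the cardiac troponin T promoter, and the GFP group received AAV9-cTNT-GFP. In both groups the heart was digested with collagenase and GFP+ cells were sorted, so that the libraries stand for transduced cells, and a sort can carry other cells along. The comparison asks how the junction genes of a maturing CM stand when SRF is raised. Only poly(A) RNA was read, and protein and its place in the cell were not measured.

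The labels list 3 libraries a group, described as biological replicates, but the count table gives counts for 5, the 3 GFP replicates and SRF-OE replicates 2 and 3. The column under the name of SRF-OE replicate 1 holds whole numbers from 20 to 104320 with 0 zeros, and for 72.1% of 20892 genes it lies within 5% of the length of an annotated transcript, against 5.64% for a column of counts. It was taken as gene length in bases. Libraries held 14137433 to 23159631 counts. Values are CPM, the share of a library's counts after scaling with TMM factors, and CPM per kilobase where genes are compared with each other. Srf, the overexpressed gene, stood at 360 and 748 CPM in the 2 SRF-OE libraries, replicates 2 and 3, but at 67.2 and 85.0 CPM in GFP replicates 2 and 3. The library labelled GFP1 had 338 CPM of Srf, close to SRF-OE replicate 2 and against its label. The header gives 6 library names to 5 columns of counts, and it heads the column of gene symbols Chr. With names displaced by 1 column, this library would be an SRF-OE library and the missing one a GFP library. Replicate numbers would then change too. Which reading holds cannot be told for certain from the table. A chi-square of the counts over genes, per degree of freedom, was 28.1 between the library labelled GFP1 and SRF-OE replicate 2 and 46.3 to SRF-OE replicate 3, against 80.9 and 63.3 to GFP replicates 2 and 3. Between the 2 SRF-OE libraries it was 63.5, and between GFP replicates 2 and 3 it was 14.5. From SRF-OE libraries to GFP replicates 2 and 3 it ran from 63.5 to 185, so 63.5 occurred within and between groups. Groups were kept as named, so each value for 5 libraries rests on that name. Each result is therefore given for the 5 libraries as labelled and for the 4 left without the library labelled GFP1. In these fits the log2 fold change of Srf was 1.76 ± 0.71 (SE, adjusted p = 0.357, edgeR's quasi-likelihood test) and 2.87 ± 0.37 (SE, adjusted p = 0.0442). Xist and Ddx3y put replicate 2 of both groups with females and the other 3 libraries with males. The p-values measure the spread between these few libraries, and an exact permutation test could not go below 0.1 with 2 against 3 libraries or 0.333 with 2 against 2.

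SRF binds the CArG box, and promoter windows from 250 bases before to 50 bases after a start site were searched for it on both strands (RefSeq, GRCm38.p6). The table held windows for 6 of the 10 genes, Gja1, Gja5, Ctnna3, Dsp, Jup and Tjp1, and not for Cdh2, Pkp2, Dsg2 and Dsc2. They had 8 windows in all, 3 of them of Ctnna3. None of the 6 genes held a CArG box, against 1.63% of all 32851 windows and 1.81% of 27025 genes. Among 21 other disc genes with a window, 1 held the box, Vcl, which encodes vinculin, the link from adherens junctions to actin. The window of Srf itself held 2, at -82 and -62 from the start site. The windows of Gja1, the junction gene with the most negative difference, and of Vcl are shown up to the last base before the start site. The first runs from chr10:56377050-56377299 and the second from chr14:20929148-20929397, both on the plus strand of GRCm38.p6.
Gja1: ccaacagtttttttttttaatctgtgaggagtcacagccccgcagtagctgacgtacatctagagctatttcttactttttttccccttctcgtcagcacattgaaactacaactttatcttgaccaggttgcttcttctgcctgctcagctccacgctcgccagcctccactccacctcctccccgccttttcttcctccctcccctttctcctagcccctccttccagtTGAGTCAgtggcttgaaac
Vcl: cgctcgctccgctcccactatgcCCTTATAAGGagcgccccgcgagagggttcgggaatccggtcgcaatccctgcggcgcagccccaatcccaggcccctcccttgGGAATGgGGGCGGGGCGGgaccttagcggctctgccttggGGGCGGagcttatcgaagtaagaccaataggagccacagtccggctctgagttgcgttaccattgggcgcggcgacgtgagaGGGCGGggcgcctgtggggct
In the Gja1 window the capitals mark an AP-1 site (searched as TGANTCA), which starts 19 bases before the start site and is held by a window of 8.97% of all genes. In the Vcl window the first capitals are the CArG box, at -227, followed by an M-CAT element (CATTCC, read on the other strand, in 16.6% of genes) and GC boxes (GGGCGG, in 38.2%), 2 of which overlap. GC boxes were in the windows of 5 of the 6 junction genes. A TATA box (TATAAA, in 15.7% of all genes) and an M-CAT element were each found for 1 of the 6, Ctnna3, in different windows of that gene. A match is a string of letters in these windows and nothing was measured at it here. The absence of a match says only that these letters are not in these bases.

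Across the set, the most negative differences between SRF-OE and GFP were those of the ventricular connexin gene Gja1 and of the desmosomal cadherin genes Dsc2 and Dsg2, while the other 7 differed by less than 0.5 on the log2 scale in both fits. In the fit of all 5 libraries no junction gene passed the adjusted p cutoff of 0.05 in edgeR's quasi-likelihood test (0% of all 13754 genes tested passed). Without the library labelled GFP1, only Dsc2 passed, with a lower level in SRF-OE, where 0.970% of all 13397 genes tested were called lower and 1.98% higher. Log2 fold changes were below 0 for 9 of 10 genes with 5 libraries, with a median of -0.25 against 0.03 over all genes, and for 10 of 10 without the library labelled GFP1, with a median of -0.30 against 0.035. Those signs hold under TMM, DESeq2 and upper quartile scaling, but under scaling to the summed cardiomyocyte markers only Gja1, Dsg2 and Dsc2 had values below 0. These were -0.35 ± 0.24 and -0.42 ± 0.22 for Gja1 with 5 and 4 libraries, -0.21 ± 0.24 and -0.32 ± 0.23 for Dsc2, and -0.055 ± 0.25 and -0.12 ± 0.23 for Dsg2 (SE), and none passed. That scaling moved the median of all genes by 0.44 and 0.62, and relative to the median of all genes 9 and 10 of the 10 genes lay below under each of the 4 scalings. A change of scaling shifts all genes by nearly the same amount, so this count could hardly differ between scalings and adds no separate support. Most of the marker sum was Myh6 and Actc1, at 40490 and 20061 of 89707 CPM in SRF-OE replicate 2. The paper reports strong down-regulation of myofibril genes under SRF overexpression. Scaling to these markers may therefore carry that response as well as CM content, and the part of each was not tested. In these bulk libraries fewer cells of a type and less RNA per cell cannot be told apart.

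**Figure D1:**
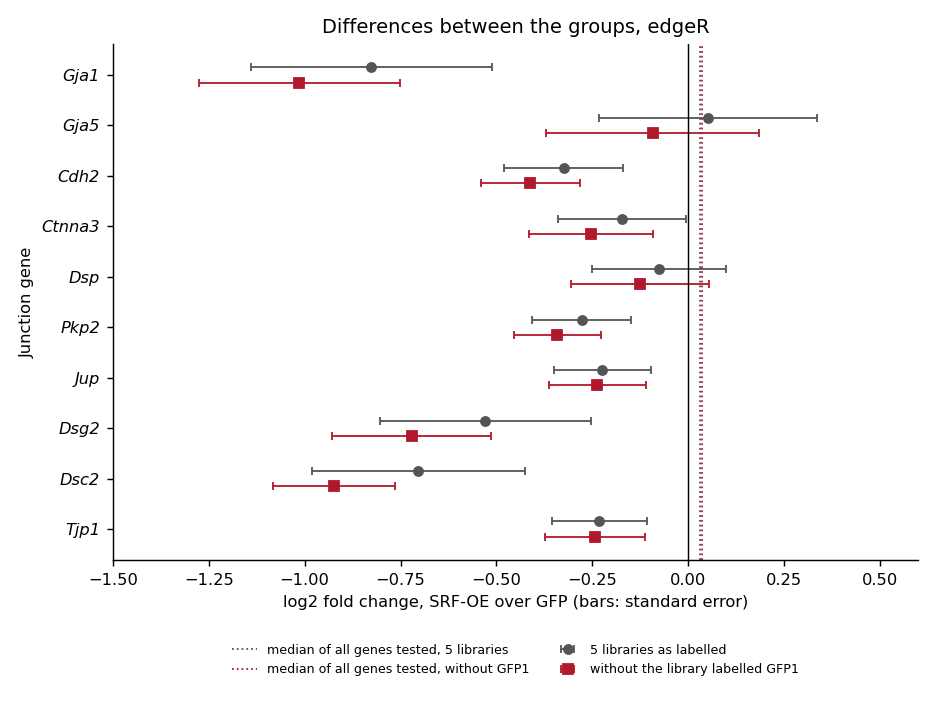
Log2 fold change of SRF-OE over GFP for the 10 junction genes on the horizontal axis, with the standard error as bars, from edgeR with the 5 libraries (circles) and without the library labelled GFP1 (squares), TMM-scaled; dotted lines are the medians of all genes tested. Gja1, Dsc2 and Dsg2 lie farthest to the left in both fits, and Gja5 is the gene whose sign differs between them.

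Counts of a looser kind read against the same background as follows. At an unadjusted p under 0.05, 2 of the 10 genes, Gja1 and Dsc2, were lower with 5 libraries, where 7.59% of all genes were lower and 6.35% higher. Without the library labelled GFP1 there were 5, Gja1, Dsc2, Dsg2, Cdh2 and Pkp2, where 14.0% of all genes were lower. Both SRF-OE libraries lay below all 3 GFP libraries for 5 of 10 genes (Gja1, Cdh2, Pkp2, Jup and Tjp1), as they did for 17.3% of all genes. Without the library labelled GFP1, 7 of 10 did not overlap, with Dsg2 and Dsc2 added, as for 30.2% of all genes.

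Gja1 encodes connexin 43, the main gap junction protein of working ventricular CMs (GRCm38, chromosome 10, 56377330 to 56402513). Its level was 792 and 472 CPM in SRF-OE replicates 2 and 3, 801 CPM in the library labelled GFP1, and 1356 and 1206 CPM in GFP replicates 2 and 3. The SRF-OE libraries were the lowest, yet SRF-OE replicate 2 and the library labelled GFP1 were nearly level. SRF-OE averaged 632 ± 226 CPM (SD, n = 2), the 3 GFP libraries 1121 ± 287 CPM (SD, n = 3), and GFP replicates 2 and 3 alone 1281 ± 106 CPM (SD, n = 2). The log2 fold change was -0.83 ± 0.31 (SE, adjusted p = 0.357, edgeR's quasi-likelihood test) with 5 libraries and -1.01 ± 0.26 (SE, adjusted p = 0.0785) without the library labelled GFP1. DESeq2 gave adjusted p = 0.0387 with 5 libraries at a filtering target of 0.05, but 0.122 at a target of 0.1 and 0.208 without independent filtering. With 4 libraries it called Gja1 lower under each of these (adjusted p from 0.000396 to 0.000625), while scaling to cardiomyocyte markers gave -0.35 and -0.42 with adjusted p = 0.375 and 0.114. The value depended on 1 SRF-OE library: with the 5 libraries it was -1.25 without SRF-OE replicate 2 and -0.51 without SRF-OE replicate 3.

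Gja5 encodes connexin 40, the gap junction protein of atrial CMs, the His-Purkinje system and arterial endothelium (chromosome 3, 96904693 to 97077416). It was at 17.8 and 13.5 CPM in SRF-OE and at 11.9, 20.5 and 12.9 CPM in GFP replicates 1, 2 and 3, so the groups overlapped fully. The counts behind these values were 163 to 447 reads a library, the fewest of the set. Its log2 fold change was 0.05 ± 0.28 with 5 libraries and -0.09 ± 0.28 without the library labelled GFP1, smaller than its error in both (adjusted p = 0.939 and 0.851, edgeR's quasi-likelihood test). Markers of the cells that use connexin 40 varied beside it: the 6 atrial markers summed to 2375 and 2398 CPM in SRF-OE and to 924, 1736 and 197 CPM in GFP replicates 1, 2 and 3. Most of that sum was Nppa, the natriuretic peptide gene that stressed ventricular CMs also make, at 1639 and 1909 CPM in SRF-OE and 177 to 1196 CPM in GFP. Of the others, Myl7 and Myl4 had positive log2 fold changes in both fits, and Stard10 negative ones. Myl7 was at 455 and 289 CPM in SRF-OE and 125, 284 and 1.18 CPM in GFP replicates 1, 2 and 3. Myl4 was at 158 and 191 CPM in SRF-OE and 95.0, 115 and 6.07 CPM in GFP. Bmp10 had 0 counts in SRF-OE replicate 3 and in GFP replicate 3, where Sln was at 2.71 and 0.237 CPM. The 5 arterial endothelial markers summed to 42.6 to 69.1 CPM in SRF-OE and 29.9 to 58.3 CPM in GFP, and the 7 conduction system markers to 43.9 to 83.7 CPM and 68.9 to 130 CPM. The part of these cells in the Gja5 level was not tested. Exons of Gja5 and of Gpr89 on the opposite strand share 165 bases, and the library kit does not mark strand.

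The desmosomal cadherin Dsc2, desmocollin 2 (chromosome 18), was the junction gene with the smallest p without the library labelled GFP1. It stood at 84.8 and 67.4 CPM in SRF-OE replicates 2 and 3, at 82.4 CPM in the library labelled GFP1, and at 156 and 133 CPM in GFP replicates 2 and 3. GFP replicates 2 and 3 were the highest, and the library labelled GFP1 fell between the SRF-OE libraries. SRF-OE averaged 76.1 ± 12.2 CPM (SD, n = 2), the 3 GFP libraries 124 ± 37.8 CPM (SD, n = 3), and GFP replicates 2 and 3 alone 145 ± 16.3 CPM (SD, n = 2). With 5 libraries the log2 fold change was -0.70 ± 0.28 (SE, adjusted p = 0.357, edgeR's quasi-likelihood test). Without the library labelled GFP1, Dsc2 was lower by -0.92 ± 0.16 (SE, adjusted p = 0.0499), a call at the cutoff. Over 13 alternatives of that fit the adjusted p ran from 9.29e-07 to 0.259, with 8 of 13 calling it lower, and the call was lost under upper quartile scaling, with a minimum of 10 counts a library, under scaling to cardiomyocyte markers, and without GFP replicate 2 or 3.

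Dsg2, desmoglein 2, is the other cadherin of the cardiac desmosome and a near neighbour of Dsc2 on chromosome 18. Its levels ran in the same order of groups, with 94.6 and 64.7 CPM in SRF-OE replicates 2 and 3, 81.6 CPM in the library labelled GFP1, and 144 and 119 CPM in GFP replicates 2 and 3. The groups overlapped through the library labelled GFP1 and were apart without it. The log2 fold change was -0.53 ± 0.27 with 5 libraries and -0.72 ± 0.21 without that library (SE, adjusted p = 0.411 and 0.0915, edgeR's quasi-likelihood test). DESeq2 called it lower without the library labelled GFP1 (adjusted p = 0.0166). Under scaling to cardiomyocyte markers its difference was smaller than its error in both fits. As with Gja1, SRF-OE replicate 3 had the lower value, and leaving it out of the 5 libraries gave -0.29. Dsg2 shares 330 exon bases with the antisense transcript Gm16090. Per kilobase, Dsc2 was above Dsg2 in 5 of 5 libraries, with a ratio of CPM per kilobase between 1.16 and 1.45.

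The plaque genes stood closer to the controls. Dsp, desmoplakin (chromosome 13, 38151294 to 38198577), was at 355 and 461 CPM in SRF-OE and 397, 406 and 488 CPM in GFP replicates 1, 2 and 3. SRF-OE replicate 3 was the second highest library and the groups overlapped, with log2 fold changes of -0.08 ± 0.18 and -0.13 ± 0.18 (SE, adjusted p = 0.848 and 0.681, edgeR's quasi-likelihood test). The sign of Dsp turned to 0.10 without SRF-OE replicate 2 and to 0.02 without GFP replicate 3, and 499 of its exon bases lie opposite Gm10129. Pkp2, plakophilin 2, the armadillo protein that ties the cadherin tails to desmoplakin (chromosome 16, 16213318 to 16272712), was at 189 and 194 CPM in SRF-OE and 209, 250 and 238 CPM in GFP. Both SRF-OE libraries were below all 3 GFP libraries, by little compared with the library labelled GFP1. Its log2 fold change was -0.28 ± 0.13 with 5 libraries and -0.34 ± 0.11 without that library (SE, adjusted p = 0.378 and 0.119), and 0.18 and 0.28 under scaling to cardiomyocyte markers.

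Jup, plakoglobin (chromosome 11, 100368958 to 100397763), serves both desmosomes and adherens junctions. It measured 328 and 338 CPM in SRF-OE and 379, 415 and 373 CPM in GFP, without overlap. The log2 fold changes of -0.22 ± 0.13 and -0.24 ± 0.13 did not pass the test (SE, adjusted p = 0.433 and 0.271, edgeR's quasi-likelihood test), and both were above 0, at 0.22 and 0.38, under scaling to cardiomyocyte markers. Of the desmosome, then, the 2 cadherin genes had differences of -0.53 and -0.70 with 5 libraries and the 3 plaque genes -0.08 to -0.28. The difference between cadherin and plaque genes was not tested.

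Cdh2, N-cadherin (chromosome 18), is the classical cadherin of the cardiac adherens junction. Its level was 323 and 361 CPM in SRF-OE, 371 CPM in the library labelled GFP1, and 466 and 447 CPM in GFP replicates 2 and 3. The SRF-OE libraries were the lowest, and the library labelled GFP1 lay nearest to them. The log2 fold change was -0.32 ± 0.15 with 5 libraries and -0.41 ± 0.13 without that library (SE, adjusted p = 0.385 and 0.108, edgeR's quasi-likelihood test), against 0.15 and 0.21 under scaling to cardiomyocyte markers. Ctnna3, alpha-T-catenin, which joins cadherin complexes to actin and to plakophilin 2 in the mixed junctions of the heart (chromosome 10, 63430098 to 65003667), was at 56.1 and 64.8 CPM in SRF-OE and 59.6, 64.6 and 80.4 CPM in GFP. Its groups overlapped, and its differences of -0.17 ± 0.17 and -0.25 ± 0.16 were near their errors in size (SE, adjusted p = 0.634 and 0.346). Tjp1, ZO-1, the scaffold at the edge of gap junction plaques that binds connexin 43 (chromosome 7, 65296165 to 65527781), was at 117 and 99.4 CPM in SRF-OE and 124, 125 and 133 CPM in GFP. Both SRF-OE libraries lay below all GFP libraries, with log2 fold changes of -0.23 ± 0.12 and -0.24 ± 0.13 that did not pass (SE, adjusted p = 0.421 and 0.270) and that were 0.21 and 0.37 under scaling to cardiomyocyte markers.

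**Figure D2:**
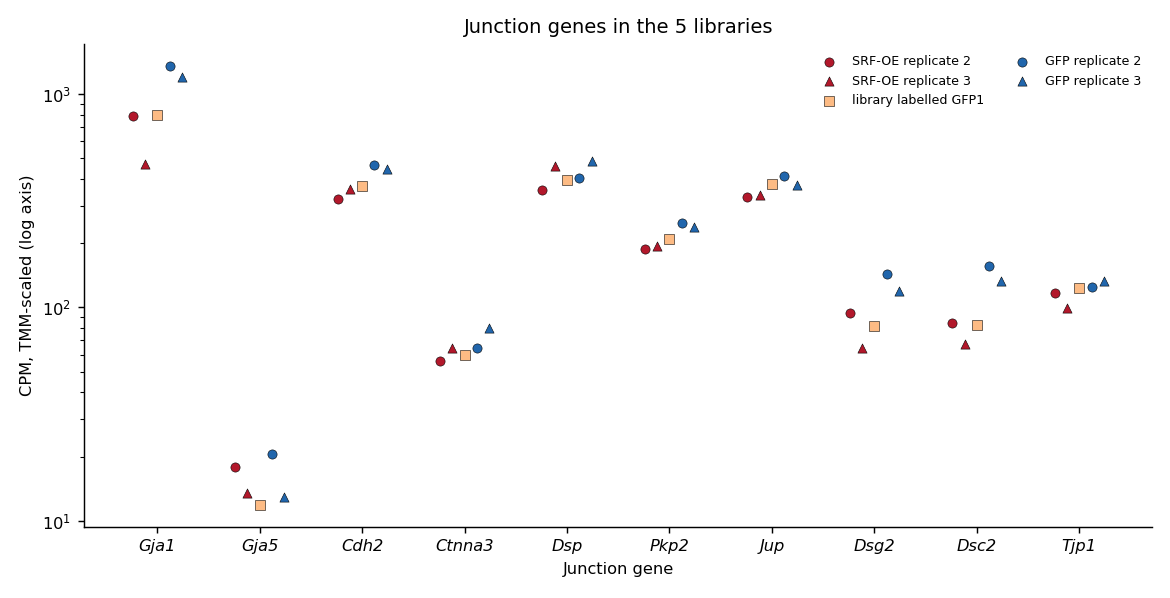
CPM of each junction gene (horizontal axis) in each of the 5 libraries on a log axis, SRF-OE in red, GFP replicates 2 and 3 in blue and the library labelled GFP1 in orange; each point is 1 library. For Gja1, Dsg2 and Dsc2 the orange square lies with the red points and away from the blue ones, and Gja5, Dsp and Ctnna3 show overlapping groups.

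Within each sex the same genes can be set side by side with 1 SRF-OE library a sex, too few for a test. The share of all genes lower in these contrasts was not computed, so the counts below have no background. Between the female libraries, SRF-OE replicate 2 and GFP replicate 2, 10 of 10 genes were lower in SRF-OE, by -0.09 to -0.88 with a median of -0.37 on the log2 CPM scale. Between the male SRF-OE replicate 3 and GFP replicate 3, 9 of 10 were lower, from -1.35 to 0.07 with a median of -0.31. Against the male library labelled GFP1, 7 of 10 were lower, from -0.76 to 0.22 with a median of -0.14. Gja1 was lower in each of the 3 contrasts, by -0.78, -1.35 and -0.76. Dsc2 gave -0.88, -0.98 and -0.29 and Dsg2 -0.61, -0.88 and -0.34 in the same order. Sex and replicate number coincide in the 4 libraries and cannot be told apart there.

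Ratios of genes within a library do not depend on how libraries are scaled. They were taken as CPM per kilobase for 13 pairs, chosen after the values were seen. The ratio of Dsc2 to Dsp was 0.519 and 0.318 in SRF-OE replicates 2 and 3, 0.451 in the library labelled GFP1, and 0.836 and 0.593 in GFP replicates 2 and 3. Both SRF-OE libraries were below GFP replicates 2 and 3, and the library labelled GFP1 fell between the SRF-OE libraries. For Gja1 to Cdh2, the connexin against the adherens cadherin, the ratio was 3.67 and 1.96 in SRF-OE, 3.23 in the library labelled GFP1, and 4.35 and 4.04 in GFP replicates 2 and 3. SRF-OE replicate 3 stood far below, while SRF-OE replicate 2 was above the library labelled GFP1. Against Myh6, the main myosin gene of these cells, Gja1 of SRF-OE replicate 2 was at 94.5% of the mean of GFP replicates 2 and 3, within their range of 84.7% to 115%, and Gja1 of SRF-OE replicate 3 at 51.8%. For Dsg2 to Dsp, SRF-OE replicate 2 at 89.1% again lay between the values of both GFP replicates, 81.6% and 118%, and SRF-OE replicate 3 was at 46.8%. Pkp2 to Dsp and Jup to Dsp gave 76.4% and 81.9% in SRF-OE replicate 3, and 96.7% and 104% in SRF-OE replicate 2. For 3 pairs the mean of SRF-OE was above that of GFP replicates 2 and 3. Gja5 to Gja1, the atrial against the ventricular connexin, was at 175% and 222% in SRF-OE against 115% in the library labelled GFP1 and 117% and 82.7% in GFP replicates 2 and 3. Both SRF-OE libraries were above all 3 GFP libraries there, while Gja5 itself overlapped between groups. Tjp1 to Cdh2 averaged 113% and Ctnna3 to Cdh2 111%, with overlapping groups.

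**Figure D3:**
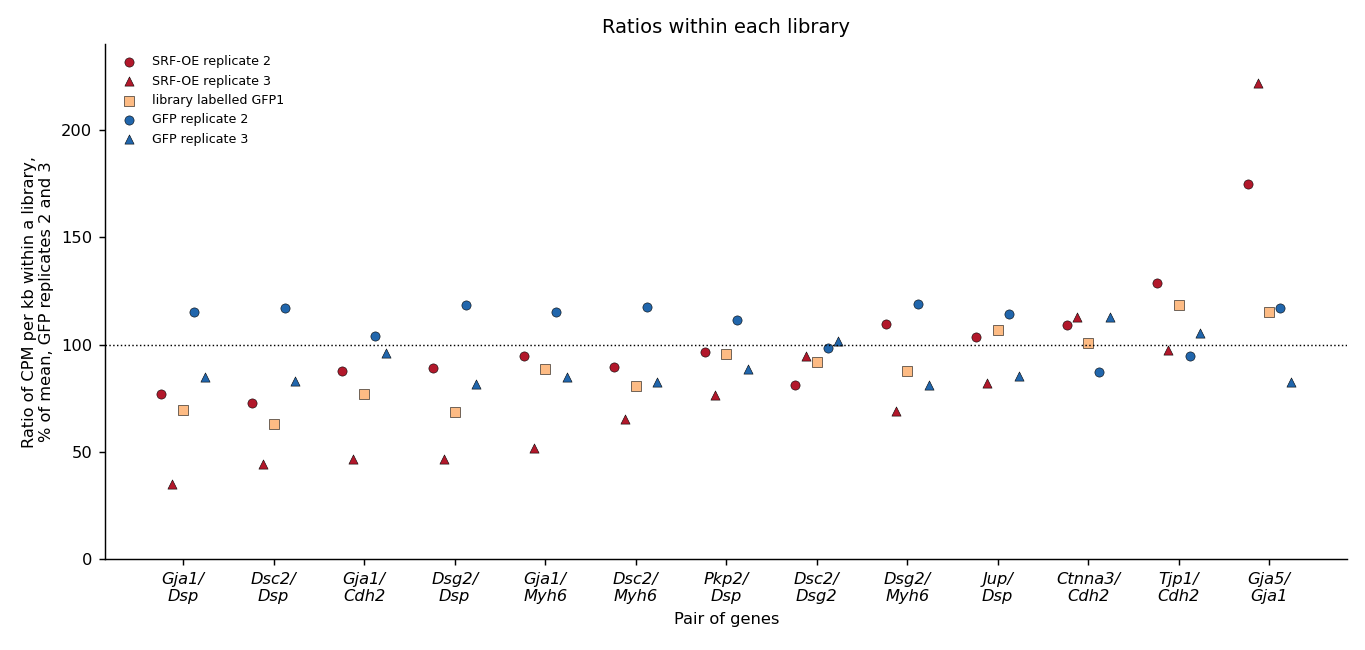
Ratio of CPM per kilobase of 13 pairs of genes within each library, as a percent of the mean of GFP replicates 2 and 3 (vertical axis from 0, dotted line at 100%); each point is 1 library. SRF-OE replicate 3 (red triangle) is the lowest of the 5 libraries for 9 pairs, SRF-OE replicate 2 (red circle) lies below both GFP replicates 2 and 3 for Gja1/Dsp, Dsc2/Dsp, Gja1/Cdh2 and Dsc2/Dsg2, and for Gja5/Gja1 both SRF-OE libraries lie above the others.

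Levels of different genes were compared as CPM per kilobase over the 5 libraries. Gja1 led with 298 ± 114 (SD, n = 5), followed by Cdh2 at 84.7 ± 13.1, Pkp2 at 74.7 ± 9.25, Jup at 73.2 ± 6.96 and Dsp at 43.9 ± 5.55. Below them came Dsc2 at 23.7 ± 8.60, Dsg2 at 17.6 ± 5.47, Tjp1 at 16.8 ± 1.76, Ctnna3 at 16.6 ± 2.38 and Gja5 at 4.93 ± 1.19. Neighbours that changed places between libraries were Pkp2 and Jup (Pkp2 higher in 2 of 5), Dsg2 and Tjp1 (Dsg2 higher in 3 of 5), and Tjp1 and Ctnna3 (Tjp1 higher in 3 of 5). The other neighbours kept their order in 5 of 5 libraries. In SRF-OE the means of Gja1 and Cdh2 were 204 ± 72.9 and 73.6 ± 5.85 (SD, n = 2), and in GFP 361 ± 92.6 and 92.2 ± 10.8 (SD, n = 3). A length that does not match the transcripts made in CMs would shift a gene in this order.

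Beyond the 10 genes, 45 other genes of the intercalated disc were listed by role, and 35 of them passed the filter with 5 libraries and 34 without the library labelled GFP1. With 5 libraries none was called, as for all genes (0%). At an unadjusted p under 0.05, 1 was higher and 5 lower, where 6.35% of all genes were higher and 7.59% lower. Without the library labelled GFP1, 1 was called higher, Gjd3, and 1 lower, where 1.98% of all genes were called higher and 0.970% lower. The median log2 fold change of those tested was -0.001 and -0.09 in the 2 fits. In each fit 18 had a negative sign, 51.4% and 52.9% of those tested, near the 46.7% and 46.8% of all genes. The desmosomal genes of stratified epithelia, Dsg1a, Dsg3, Dsg4, Dsc1, Dsc3, Pkp1 and Pkp3, were each under 1 CPM in every library, so the desmosome of these cells was read through the 5 cardiac genes.

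Gjd3, a connexin known from the conduction system (chromosome 11, 98982180 to 98983016), was at 5.49 and 11.4 CPM in SRF-OE, 7.27 CPM in the library labelled GFP1, and 0.963 and 1.03 CPM in GFP replicates 2 and 3, from 21 and 13 reads in the latter 2. It was the opposite of Gja1 in direction, with log2 fold changes of 1.43 ± 0.88 with 5 libraries and 3.10 ± 0.46 without the library labelled GFP1 (SE, adjusted p = 0.460 and 0.0473, edgeR's quasi-likelihood test). The call was lost under upper quartile scaling (adjusted p = 0.0524), with a minimum of 10 counts a library, and without GFP replicate 2 or 3.

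Genes were also taken by role, by the smallest unadjusted p over the 5 libraries, and none of those described here passed the adjusted cutoff in either edgeR fit. DESeq2 at a filtering target of 0.05 called Tmem65 lower with 5 and with 4 libraries (adjusted p = 0.0164 and 0.0311), and Gja3 and Perp lower with 4 (adjusted p = 0.00257 and 0.0484). Without independent filtering the call of Tmem65 with 5 libraries (adjusted p = 0.0681) and that of Perp (adjusted p = 0.0763) were lost. Tmem65, a membrane protein of the disc, had -0.54 ± 0.13 and -0.55 ± 0.13 (SE, adjusted p = 0.353 and 0.0660, edgeR's quasi-likelihood test), with 231 and 255 CPM in SRF-OE and 341 to 371 CPM in GFP. Here the library labelled GFP1, at 351 CPM, lay with the other GFP libraries, and the sign turned to 0.074 in the 4 libraries under scaling to cardiomyocyte markers. Gja3, the connexin known from the lens, stood at 23.8 and 10.2 CPM in SRF-OE and 17.7, 44.1 and 36.6 CPM in GFP, with -0.95 ± 0.48 and -1.25 ± 0.38 (SE, adjusted p = 0.403 and 0.102). Perp, a tetraspan protein of desmosomes, had -0.50 ± 0.25 and -0.62 ± 0.23 (SE, adjusted p = 0.398 and 0.151), and -0.041 and -0.027 under scaling to cardiomyocyte markers. Without SRF-OE replicate 3 the values with 5 libraries were -0.47 for Gja3 and -0.23 for Perp. Vcl, with the CArG box shown above, was at 230 and 260 CPM in SRF-OE and 264, 296 and 345 CPM in GFP, with -0.30 ± 0.16 and -0.38 ± 0.14 (SE, adjusted p = 0.416 and 0.146) and 0.18 and 0.25 under scaling to cardiomyocyte markers. Its exons share 2090 bases with Ap3m1 on the opposite strand.

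**Figure D4:**
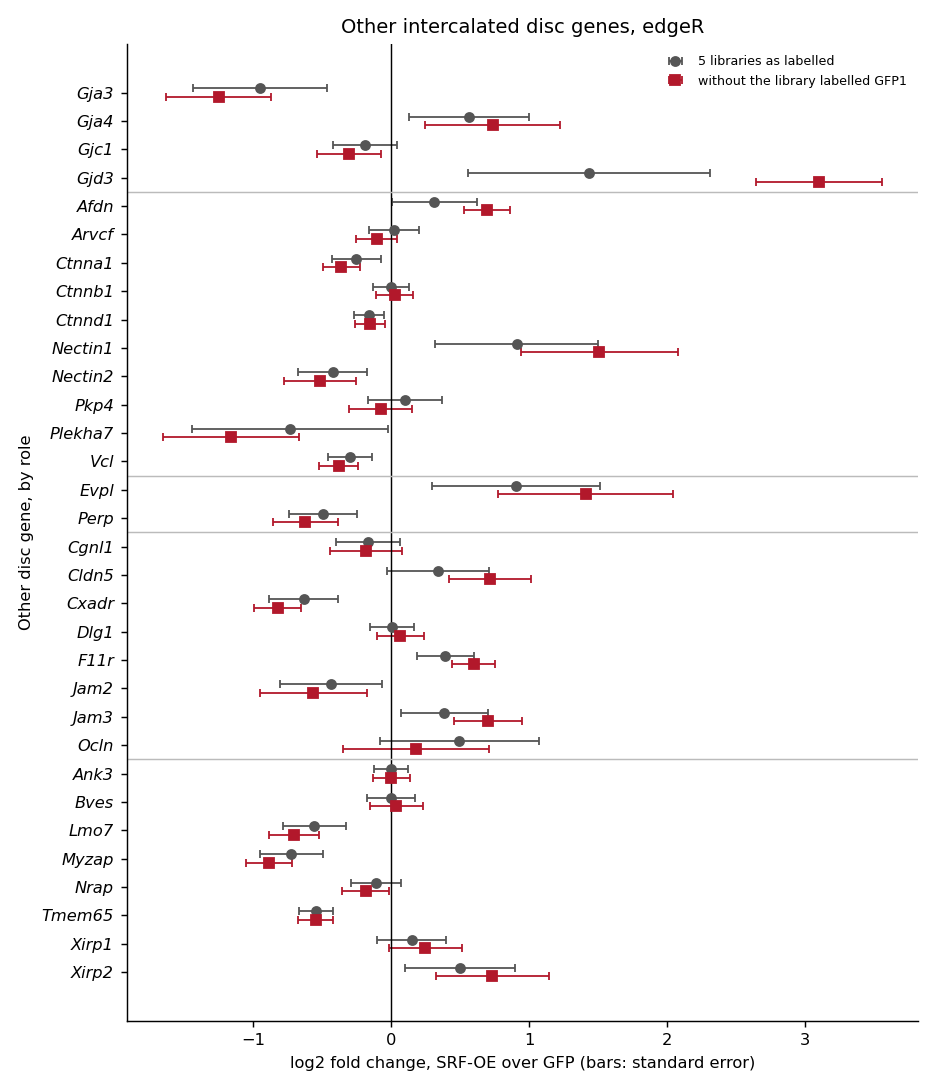
Log2 fold change of SRF-OE over GFP for 32 other disc genes tested in both fits (vertical axis, grey lines between the roles), with the standard error as bars, from edgeR with the 5 libraries (circles) and without the library labelled GFP1 (squares), TMM-scaled. Gjd3 at 3.10 lies farthest to the right and Gja3 at -1.25 farthest to the left.

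Markers of cell types were read in every library to check the sorted cell type and to set other cell types beside the results. The 8 CM markers, among them Myh6 and Tnnt2, summed to 80550 and 89707 CPM in SRF-OE and to 93641 to 140920 CPM in GFP, with 8 of 8 below 0 in log2 fold change (median -0.47 with 5 libraries and -0.60 without the library labelled GFP1) and 0 of 8 called. The 10 junction genes had medians of -0.25 and -0.30 beside these. The 10 endothelial markers summed to 862 and 337 CPM in SRF-OE and 662, 360 and 358 CPM in GFP replicates 1, 2 and 3, and the 8 fibroblast markers to 820 and 421 CPM against 441, 356 and 307 CPM. Leukocyte markers stayed at 11.6 to 35.3 CPM for 7 genes, and 4 of 5 erythroid genes, the globin genes, had 0 counts in every library. The 7 smooth muscle and pericyte markers summed to 574 and 757 CPM in SRF-OE and 661 to 1572 CPM in GFP, where Acta2, which immature CMs also use, held most of the sum and had log2 fold changes of -1.12 and -1.45 (adjusted p = 0.358 and 0.0499, edgeR's quasi-likelihood test). The other 6 of these 7 markers had positive log2 fold changes in both fits, and Tagln was at 36.1 and 83.4 CPM in SRF-OE and 6.14 to 20.2 CPM in GFP (log2 fold change 2.30 and 2.92, adjusted p = 0.353 and 0.0473, edgeR's quasi-likelihood test). The part of other cell types in the junction gene levels was not tested.

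Epithelial cells of the epicardium have desmosomes too, so its 8 markers bear on Dsp, Jup, Dsg2 and Dsc2. Their sum was 116 and 451 CPM in SRF-OE, 187 CPM in the library labelled GFP1, and 10.1 and 8.83 CPM in GFP replicates 2 and 3. In SRF-OE and the library labelled GFP1 most of it was Krt18 and Krt8, simple-epithelial keratins named after their values were seen. Krt18 was at 79.1 and 394 CPM in SRF-OE, 153 CPM in the library labelled GFP1, and 3.44 and 3.23 CPM in GFP replicates 2 and 3, a log2 fold change of 2.15 ± 1.58 with 5 libraries and 6.15 ± 0.86 without that library (SE, adjusted p = 0.530 and 0.0473, edgeR's quasi-likelihood test). Krt8 ran from 1.03 to 51.7 CPM in the same order of libraries (adjusted p = 0.585 and 0.0502). The defining markers of that layer stayed low: Wt1 was at 1.47 to 6.76 CPM, Upk3b at 0.142 to 7.68 CPM and Msln at 0.237 to 2.83 CPM. The highest values of these 3, and of Upk1b, Lrrn4 and the keratin Krt19, were in SRF-OE replicate 2. Krt18 and Krt8 were highest in SRF-OE replicate 3. All 8 markers had positive log2 fold changes in both fits, with medians of 2.01 and 2.36.

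**Figure D5:**
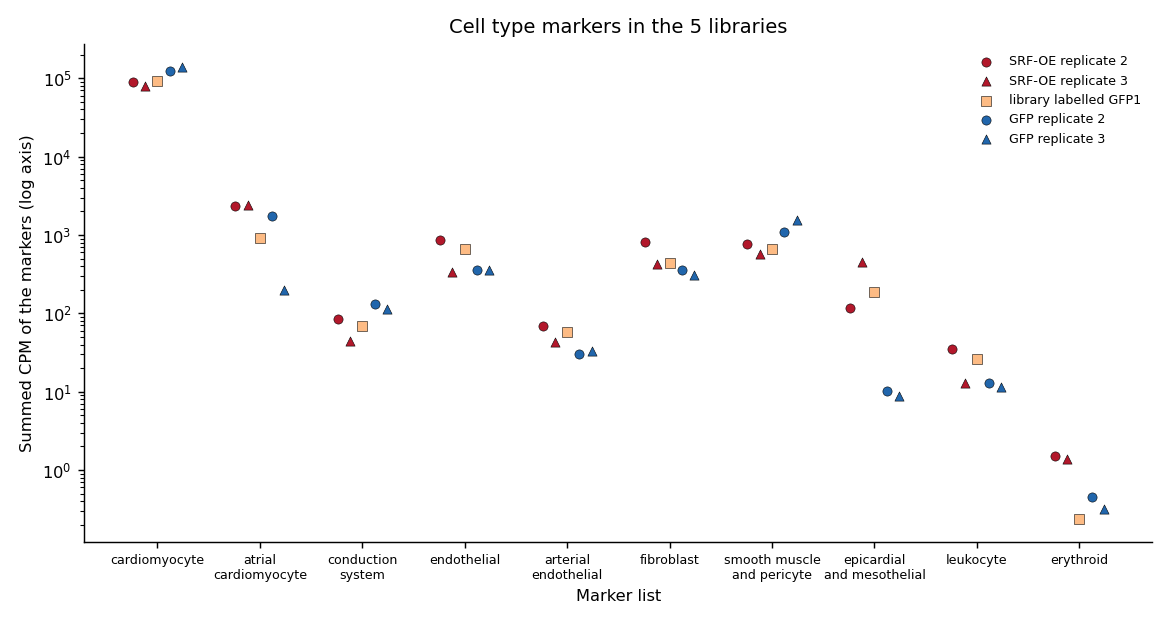
Summed CPM of 10 lists of cell type markers (horizontal axis) in each of the 5 libraries, on a log axis; each point is 1 library, coloured by group. The CM markers sum to 80550 to 140920 CPM, and the epicardial and mesothelial list, which includes Krt18 and Krt8, separates GFP replicates 2 and 3 from the other 3 libraries.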

How the data were processed

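RNA-seq was read from GFP+ CMs of 2 groups, SRF-OE and GFP. Per the labels and the paper, the authors built SMART-Seq and Nextera libraries, aligned reads to mm10 with STAR 2.5.3a and deposited raw counts per gene from featureCounts (Subread 1.5.2). Settings for strand and multiply mapped reads are not given in the sources used here. Columns were assigned by name, 0 columns of per-sample values were left unused, and the design for 6 libraries could use 5. The column deposited under the name of SRF-OE replicate 1, which holds gene lengths and no counts, served only for CPM per kilobase.

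Counts were tested with edgeR 4.0.16 in R 4.3.3 (filterByExpr, TMM, glmQLFit, glmQLFTest; Benjamini-Hochberg over all genes tested, cutoff 0.05). The standard error is the log2 fold change divided by the root of F. Positions are from GENCODE on GRCm38. In the text 792 CPM of Gja1, for example, rests on 13716 counts in a library of 15927653, so counting error was small beside the spread between libraries.

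The members and lists were chosen with earlier results of these data known. Named were all 10 members, Srf, each other disc gene past the cutoff in either fit, and in each role the gene with the smallest unadjusted p over 5 libraries. Of these, 2 genes are not reported here. Alternatives were DESeq2 1.42.0, other scalings, other filters, the replicate block and leaving out each library; scaling to 8 CM markers, 2 DESeq2 filter targets and the tests with 1 SRF-OE library were added after the data were seen. On simulated counts in which 200 genes had a log2 change of 1.5, edgeR recovered 62.2% with 5 libraries and 70.7% with 4, with 6.28% and 9.98% of its calls false. DESeq2 recovered 74.7% in both, with 24.3% and 14% of its calls false. The log2 fold changes of the junction genes ran from -0.83 to 0.05 with 5 libraries and from -1.01 to -0.09 with 4. Recovery of differences of that size was not tested.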

Additional observations from a re-analysis of the deposited data

Results flagged for a closer look

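For Gja5 the difference between SRF-OE and GFP had opposite signs in the sexes, at -0.20 on the log2 CPM scale between the female libraries and 0.07 and 0.19 between the male SRF-OE library and the 2 male GFP libraries. The difference between the sexes was not tested, since each sex has 1 SRF-OE library, and all 3 values are smaller than the standard error of the fit.

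The summed endothelial markers showed the same kind of split, at 1.26 in females and -0.09 and -0.97 in males, also not tested.

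The ratio of Tjp1 to Cdh2 was split likewise, at 0.44 on the log2 scale in females and -0.11 and -0.28 in males, not tested.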

How the results depend on the processing

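Counts of calls depended strongly on the method. The number of genes tested differs between filters and tools, and shares of all genes tested were not computed for these alternatives. The counts of junction genes below are therefore given without that background. With 5 libraries, DESeq2 with a filtering target of 0.05 called 11 genes higher and 213 lower. Among the lower ones were 1 of the 10 junction genes and 3 other disc genes. Filtering at that target left Gja5, Ctnna3, Dsg2, Dsc2 and Tjp1 without an adjusted p, so these genes could not be called there. A target of 0.1 gave 40 and 75, with 1 other disc gene lower, and no independent filtering gave 17 and 29. The counts of 0 held under the other scalings, filters and when any library but GFP replicate 1 was left out. Over the fits leaving out 1 library the counts ran from 0 to 265 higher and 0 to 130 lower, with 0 to 1 junction genes lower and 0 to 1 other disc genes higher and 0 to 1 lower.

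With the replicate block, 582 genes were called higher and 432 lower in the 5 libraries, with 3 junction genes lower (Gja1, Dsg2 and Dsc2), 2 other disc genes higher and 5 lower, and 547, 392, 3, 2 and 5 in the 4 libraries. The library labelled GFP1 has no SRF-OE partner and is alone in its block. It therefore adds nothing to the group difference, and both block fits compare the same 4 libraries. The numbers of only 2 pairs are shared, and deviations of same-numbered libraries correlated at 0.374 and -0.061 in the 5 libraries and at 0.203 in the 4. Pairing by animal is not in the labels, but in the 4 libraries the numbers coincide with sex, so there the replicate block is also a sex block, with adjusted p = 0.041 for Gja1, 0.039 for Dsg2 and 0.024 for Dsc2. Under this replicate block Gja5 turned to -0.068.

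Without the library labelled GFP1, called genes (higher and lower, then junction genes lower, other disc genes higher and lower) were 330, 206, 1, 1 and 2 with DESeq2's size factors, 88, 9, 0, 0 and 0 with upper quartile scaling, 1660, 1303, 3, 6 and 10 with no filter on low counts, 55, 9, 0, 0 and 0 with a minimum of 10 counts a library, 853, 832, 3, 2 and 8 with DESeq2 at either filtering target, 722, 690, 3, 2 and 6 without its independent filtering, and 6068, 82, 0, 15 and 0 under scaling to CM markers. Leaving out a further library gave 0 to 1640 higher and 0 to 1638 lower, 0 to 3 junction genes lower, 0 to 5 other disc genes higher and 0 to 11 lower. The high counts came without SRF-OE replicate 2 or 3, where the lone SRF-OE library is assumed to vary like the GFP libraries, and 0 to 2 genes were called without GFP replicate 2 or 3. The cause of these shifts was not tested.

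Scaling to CM markers turned the median of the junction genes to 0.20 with 5 libraries and 0.33 with 4. It gave 0.15 and 0.21 for Cdh2, 0.31 and 0.38 for Ctnna3, 0.40 and 0.51 for Dsp, 0.18 and 0.28 for Pkp2, 0.22 and 0.38 for Jup, 0.21 and 0.37 for Tjp1, 0.18 and 0.25 for Vcl, and with 4 libraries 0.50 for Gja5 and 0.074 for Tmem65. Over the fits leaving out 1 library Gja5 ran from -0.16 to 0.34 with 5 libraries and from -0.40 to 0.27 with 4, and Dsp from -0.29 to 0.10 and from -0.33 to 0.048, so both changed sign. In all other alternatives run, the junction genes kept their sign. SRF-OE replicate 1 has no column of counts, so no fit leaves it out. Depth limits mainly Gja5 and Gjd3, with 163 to 447 and 13 to 262 counts a library.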
